A study of Homo sapiens with 6 samples.

Results

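The genes described here are the 9 enzymes PHGDH, PSAT1, PSPH, SHMT1, SHMT2, MTHFD1, MTHFD1L, MTHFD2 and ALDH1L2, which make serine and pass its carbon to folate. They were taken by name from a table of 26748 genes, all 9 were found, and all 9 passed the minimum level for testing. The study compared M14, an established human melanoma cell line, in conventional adherent culture (2D, 3 libraries) and as non-adherent melanospheres, floating balls of cells (3D, 3 libraries). No drug, transgene or genotype differed between the cultures, and both were of the same line. The values are normalised read counts, meaning reads assigned to a gene divided by 1 size factor per library.

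Cells make serine from an intermediate of glycolysis in a short chain: PHGDH oxidises 3-phosphoglycerate, PSAT1 adds the amino group from glutamate, and PSPH removes the phosphate. The hydroxymethyltransferases SHMT1 (cytosol) and SHMT2 (mitochondria) then split serine into glycine and a carbon unit held on folate. In mitochondria MTHFD2 oxidises this unit, and MTHFD1L releases it as formate while ALDH1L2 can burn it to carbon dioxide with the yield of NADPH. Formate leaves for the cytosol, where the trifunctional enzyme MTHFD1 puts it back on folate for the synthesis of purines and thymidylate. Many of these genes, above all PHGDH, PSAT1, SHMT2 and MTHFD2, are known targets of ATF4, the transcription factor of the amino acid and integrated stress responses.

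Depth was 16567763 to 19954987 assigned reads per library. The 2D libraries were unlike each other: across tested genes, log2 values of 2D replicates 1 and 2 correlated at 0.984, and 2D replicate 3 correlated with them at 0.943 to 0.945 and with the 3D libraries at 0.928 to 0.935. 3D replicate 2 correlated with the other 3D libraries at 0.966 to 0.967, and these with each other at 0.987. Tested changes of the genes described here are given with and without 2D replicate 3. This library was singled out as the one least like its own culture. Without it the p-values rest on the 2 alike libraries of 2D, so they may be too small. Those of markers and of most other genes are given over all 6 libraries only. Ratios are given library by library, and ranks and profiles over all 6 libraries only. Of 8 pigment cell markers 3 were tested: MITF fell from 1131 ± 215 in 2D to 288 ± 19.0 in 3D and DCT from 70.0 ± 42.4 to 0.619 ± 1.07, while PMEL, at 434 ± 280 and 1071 ± 398, did not pass (limma adjusted p = 0.053). SOX10, MLANA, TYR, TYRP1 and S100B had means of at most 16.1 in both cultures. Of 6 proliferation markers, MKI67, TOP2A and CDK1 were lower in 3D (11.6% of all genes were) and CCNB1, PCNA and MCM2 did not pass; their summed levels were 26929 to 35327 in 2D and 15689 to 17141 in 3D. Some markers of other cell types moved with culture too. COL3A1 of fibroblasts rose from 900 ± 736 to 5705 ± 1924, and the epithelial genes CDH1 (92.3 ± 20.2 to 5.62 ± 2.74) and EPCAM (423 ± 55.8 to 172 ± 35.8) fell. The most abundant epithelial gene, KRT8, did not pass (log2 0.21, limma adjusted p = 0.73), and KRT5 had means of 0.318 in 2D and 6.53 in 3D. Summed epithelial markers were 13793 to 44830 in 2D and 21926 to 28878 in 3D. Of 5 listed fibroblast markers 3 were found: COL3A1, COL1A1, which did not pass (limma adjusted p = 0.066), and DCN, with at most 3.88 in any library. Their sum was 1980 to 6003 in 2D and 8282 to 11966 in 3D. The part of any of these markers in the results was not tested. In bulk RNA, fewer cells expressing a gene and less RNA per cell cannot be told apart.

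Where a promoter was found in RefSeq (GRCh38.p14), it was read from 250 bases before to 50 after the annotated start. The table held 6 of the 9 genes, not PSPH, SHMT2 or ALDH1L2. Promoters of 3 genes are shown because their genes did different things in these libraries: MTHFD1L was lower in 3D, MTHFD1 did not pass the test, and PSAT1 had the widest spread of the genes of serine synthesis. Capitals mark TGATGNAA, the core of the element bound by ATF4 together with C/EBP factors, and CACGTG, the E-box. Both strands were searched.
MTHFD1L (chr6:150866197-150866496, plus strand, 1 of 4 annotated starts): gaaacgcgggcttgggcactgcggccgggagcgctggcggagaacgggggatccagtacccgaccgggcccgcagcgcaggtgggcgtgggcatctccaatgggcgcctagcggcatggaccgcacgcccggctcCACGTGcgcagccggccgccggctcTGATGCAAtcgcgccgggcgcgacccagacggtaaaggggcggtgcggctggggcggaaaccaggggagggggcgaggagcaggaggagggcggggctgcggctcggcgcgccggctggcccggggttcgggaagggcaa
MTHFD1 (chr14:64388103-64388402, plus strand): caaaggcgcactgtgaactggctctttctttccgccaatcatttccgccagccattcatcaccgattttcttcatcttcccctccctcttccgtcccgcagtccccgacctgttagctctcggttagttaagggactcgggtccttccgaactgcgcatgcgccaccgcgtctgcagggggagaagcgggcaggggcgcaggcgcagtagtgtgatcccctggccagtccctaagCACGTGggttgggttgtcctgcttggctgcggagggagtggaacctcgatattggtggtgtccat
PSAT1 (chr9:78296875-78297174, plus strand): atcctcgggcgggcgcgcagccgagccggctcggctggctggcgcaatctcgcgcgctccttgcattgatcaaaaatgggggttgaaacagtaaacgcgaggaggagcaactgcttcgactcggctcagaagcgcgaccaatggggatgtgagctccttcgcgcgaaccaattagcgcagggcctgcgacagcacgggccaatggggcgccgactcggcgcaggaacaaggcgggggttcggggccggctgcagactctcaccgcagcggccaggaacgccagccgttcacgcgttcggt
In the MTHFD1L promoter the ATF4-type core TGATGCAA lay 90 bases before this start, with an E-box 115 bases before it, and the windows of 2 neighbouring starts overlap this one and hold the same matches. MTHFD1 had an E-box 15 bases before its start and no match to the ATF4-type core. PSAT1 had neither, nor had the windows of PHGDH, SHMT1 and MTHFD2. Among all 35116 promoter windows, 3.62% held the ATF4-type core and 7.26% an E-box. Counted by gene, 4.46% and 8.77% of 27305 genes had such a match in at least 1 window. The cyclic AMP response element, a palindrome present in 1.85% of windows, was in none of the 9 windows of these genes. TGANNNNGC, the core of the antioxidant response element, was in 41.8% of all windows and in at least 1 window of 47.1% of genes. Among the genes described here, PHGDH, SHMT1, MTHFD1, MTHFD2 and MTHFD1L had it in at least 1 window. These matches describe letters in a window and do not show binding.

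All 9 genes had a lower mean in 3D than in 2D, but only 3 passed the test, and for most of the 9 genes 2D replicate 3 lay nearer to the spheres than to the other 2D libraries. PHGDH, MTHFD2 and MTHFD1L were lower in 3D by limma at a threshold of 0.05 on p-values adjusted by Benjamini-Hochberg over 15598 genes, and none was higher. Over all genes tested, 11.6% were called lower and 12.5% higher. At an unadjusted p under 0.05, 6 of the 9 were lower and 0 higher, against 20.3% and 20% of all genes. The same 3 genes had every 3D library below every 2D library, which held for 22.6% of all genes. The median log2 change of the 9 was -0.98, and that of all tested genes was -0.02.

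Leaving 2D replicate 3 out of the fit, 7 of the 9 were lower (all but SHMT1 and MTHFD1), as were 23% of all genes. With 3D replicate 2 left out as well, a fit chosen after seeing the data, 7 were again lower, against 29.5% of all genes. Fits that dropped another library called fewer. The count was 1 with 2D replicate 1 dropped (4.61% of all genes), 1 with 2D replicate 2 dropped (4.92%) and 1 with 3D replicate 1 dropped (4.47%). It was 2 with 3D replicate 2 dropped (9.03%) and 0 with 3D replicate 3 dropped (4.21%). On the recovered reads, edgeR's quasi-likelihood test called 5 lower (11% of all genes) and DESeq2 7 (14.8%), with 0 higher by either. With libraries rescaled to equal totals, 2 were lower, against 8.01% of all genes.

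**Figure D1:**
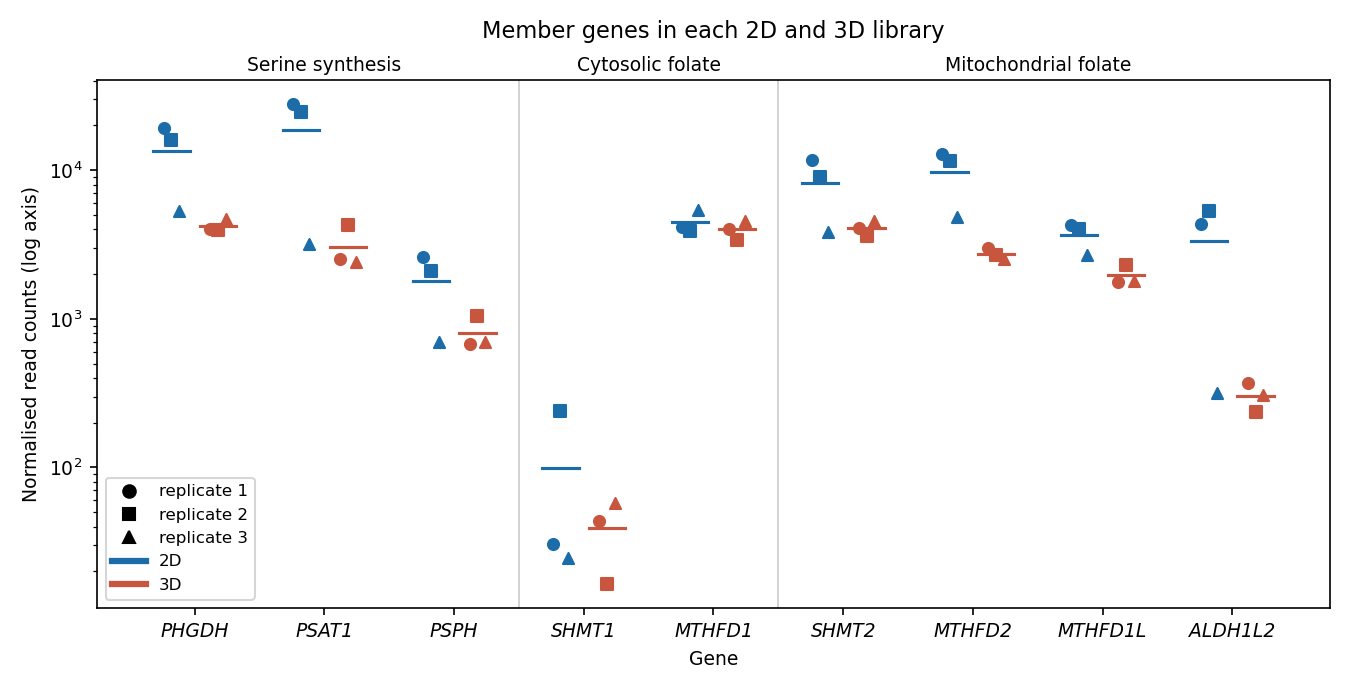
Normalised read counts (log axis) of the 9 genes in each library, 2D in blue and 3D in red, with the replicate as the symbol and the culture mean as a bar. 2D replicate 3 (blue triangle) lies near the 3D libraries for most genes, as for PHGDH, at 5285 against 3961 to 4669 in 3D.

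PHGDH, the first enzyme of serine synthesis (ENSG00000092621, chromosome 1, 119648411 to 119744226, GRCh38), had 19088, 15851 and 5285 normalised counts in 2D replicates 1, 2 and 3. In 3D replicates 1, 2 and 3 it had 4018, 3961 and 4669. The 3D libraries were close to each other and all below 2D, with 2D replicate 3 only 1.13 times above the highest of them. The means were 13408 ± 7218 (SD, n = 3) and 4216 ± 393 (SD, n = 3), a log2 change of -1.48 (SE 0.43, 95% interval -2.44 to -0.51, limma adjusted p = 0.038). It was -2.05 when 2D replicate 3 was dropped (adjusted p = 4.7e-05). Dropping any of the other 5 libraries ended the call (adjusted p between 0.097 and 0.12), as did the rescaling to equal totals (adjusted p = 0.051).

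PSAT1, the aminotransferase (ENSG00000135069, chromosome 9, 78297143 to 78330093), had 27896, 24557 and 3161 in 2D and 2507, 4243 and 2405 in 3D. In 2D replicate 3 it was 8.82 and 7.77 times below 2D replicates 1 and 2, inside the range of the 3D libraries, so the cultures overlapped. The 3D mean was 6.07 times below that of 2D (log2 -2.13, SE 0.73, 95% interval -3.80 to -0.47), which did not pass (limma adjusted p = 0.064). It did pass with 2D replicate 3 dropped, at -3.15 (adjusted p = 5.1e-05), and it also passed by edgeR (adjusted p = 0.030) and DESeq2 (adjusted p = 0.012).

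PSPH, the phosphatase that frees serine (ENSG00000146733, chromosome 7, 56011051 to 56051604), had 2598, 2094 and 703 in 2D and 681, 1040 and 701 in 3D. It too had 2D replicate 3 inside the 3D range, and it had the smallest difference of the 3 genes of the chain (log2 -0.98, SE 0.44, 95% interval -1.99 to 0.03, limma adjusted p = 0.13). It passed at -1.56 once 2D replicate 3 was dropped (adjusted p = 0.00073) and by DESeq2 (adjusted p = 0.032).

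The chain did not keep fixed proportions. The ratio of PSPH to PHGDH, each per kilobase of its principal transcript, was 0.162, 0.157 and 0.158 in the 2D libraries, nearly constant although PHGDH itself spanned 3.61-fold there. In 3D it was higher in every library, at 0.201, 0.312 and 0.178. PSAT1 to PSPH went the other way, from 10.7, 11.7 and 4.48 in 2D to 3.66, 4.06 and 3.42 in 3D, with 2D replicate 3 again next to the spheres. PSAT1 to PHGDH overlapped between the cultures, at 1.73, 1.83 and 0.707 in 2D and 0.737, 1.27 and 0.609 in 3D. Ratios between these genes are descriptions and were given no test.

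Of the cytosolic enzymes, neither passed. MTHFD1 (ENSG00000100714, chromosome 14, 64388031 to 64463457) had 4132, 3906 and 5379 in 2D and 4030, 3381 and 4579 in 3D. The cultures overlapped, and MTHFD1 was the only one of the 9 genes with its highest value in 2D replicate 3. Its log2 change was -0.16 (SE 0.20, 95% interval -0.60 to 0.29, limma adjusted p = 0.58), an interval that leaves room for a fall of up to 0.60 on the log2 scale. With 2D replicate 3 dropped the change was -0.018 (limma adjusted p = 0.94).

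SHMT1 (ENSG00000176974, chromosome 17, 18327860 to 18363563) was the lowest of the 9, with 30.5, 241 and 24.7 in 2D and 43.6, 16.5 and 57.8 in 3D. The cultures overlapped and 1 library, 2D replicate 2, held most of the 282 reads in 2D. The log2 change was -0.70 (SE 0.84, 95% interval -2.62 to 1.22, limma adjusted p = 0.57), and without 2D replicate 2 it turned to 0.33 (adjusted p = 0.74). The SE was 0.58 in that fit. With 2D replicate 3 dropped the change was -1.29 (limma adjusted p = 0.23). SHMT1 had 17 reads in its lowest library.

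Of the 4 mitochondrial enzymes, MTHFD2 and MTHFD1L passed. MTHFD2, the mitochondrial dehydrogenase and cyclohydrolase (ENSG00000065911, chromosome 2, 74198562 to 74217565), had 12864, 11597 and 4843 in 2D and 2975, 2669 and 2542 in 3D. The cultures did not overlap, and 2D replicate 3 lay 1.63 times above the highest 3D library, the widest such gap among the 9 genes. The log2 change was -1.72 (SE 0.34, 95% interval -2.50 to -0.94, limma adjusted p = 0.010), and without 2D replicate 3 it was -2.17 (adjusted p = 3.0e-05). The call was lost only without 3D replicate 3 (adjusted p = 0.054; 3.0e-05 to 0.039 without any other single library). Transcripts of another gene, chiefly SLC4A5, hold 25.6% of the 75-base windows of MTHFD2, so the source of reads in those windows is uncertain. SLC4A5 itself was at 3.08 to 23.5 normalised counts in the 6 libraries.

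MTHFD1L, the mitochondrial formyl-folate synthetase (ENSG00000120254, chromosome 6, 150865549 to 151101887), had 4273, 3991 and 2676 in 2D and 1774, 2309 and 1809 in 3D. It did not overlap between cultures, and it spread less within 2D than the other mitochondrial genes. It fell by 0.87 on the log2 scale (SE 0.22, 95% interval -1.37 to -0.37, limma adjusted p = 0.024). The call ended when either of 2D replicates 1 and 2, or either of 3D replicates 1 and 3, was dropped (adjusted p between 0.084 and 0.10). With 2D replicate 3 dropped the change was -1.08 (adjusted p = 0.0011).

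SHMT2, which loads the carbon unit of serine onto mitochondrial folate (ENSG00000182199, chromosome 12, 57229327 to 57234935), had 11664, 9048 and 3818 in 2D and 4090, 3633 and 4544 in 3D. 2D replicate 3 lay inside the 3D range. The log2 change of -0.86 did not pass (SE 0.37, 95% interval -1.70 to -0.02, limma adjusted p = 0.12), but it passed when 2D replicate 3 was dropped (-1.33, adjusted p = 0.00050) and by DESeq2 (adjusted p = 0.033).

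ALDH1L2, the mitochondrial formyl-folate dehydrogenase (ENSG00000136010, chromosome 12, 105019784 to 105084577), had the widest range, with 4361, 5315 and 317 in 2D and 367, 237 and 307 in 3D. 2D replicate 3 was 13.8 and 16.8 times below the other 2D libraries and inside the 3D range. The 3D mean was 10.97 times below the 2D mean, yet the log2 change of -2.70 did not pass (SE 0.91, 95% interval -4.78 to -0.62, limma adjusted p = 0.062). It passed without 2D replicate 3 (-4.01, adjusted p = 1.5e-05), by edgeR (adjusted p = 0.022) and by DESeq2 (adjusted p = 0.0038).

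**Figure D2:**
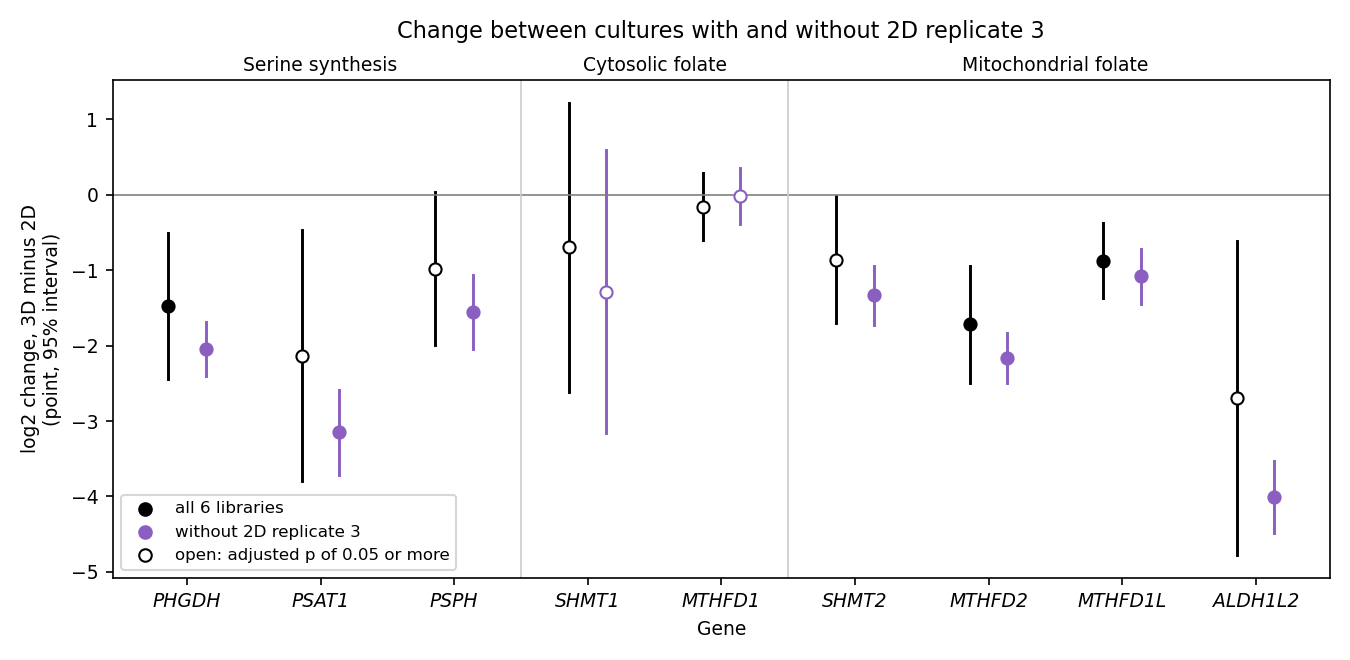
Log2 change from 2D to 3D with its 95% interval for each gene, fitted on all 6 libraries (black) and without 2D replicate 3 (purple), with filled points for an adjusted p under 0.05. Of the 9 genes, 3 are filled with all libraries and 7 without 2D replicate 3; SHMT1 and MTHFD1 are open in both.

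The 9 genes varied more among the 2D libraries than among the 3D libraries. The median SD of their log2 values was 1.00 over the 2D libraries and 0.22 over the 3D libraries, where all tested genes had medians of 0.33 and 0.24. For 5 of the 9 genes (PSAT1, PSPH, SHMT1, SHMT2 and ALDH1L2) 2D replicate 3 fell inside the range of the 3D libraries, as it did for 30.04% of all tested genes. For 8 of the 9, all but MTHFD1, it was the lowest 2D library, which held for 41.2% of all genes. Summed marker levels in 2D replicate 3 also lay apart from 2D replicates 1 and 2. Proliferation markers summed to 35327, the highest of the 6 libraries. Fibroblast markers, all of it COL1A1 and COL3A1, summed to 6003 there, against 1980 and 2529 in 2D replicates 1 and 2. Epithelial markers, nearly all KRT8, summed to 44830 against 17239 and 13793, and endothelial markers to 310 against 63.9 and 52.3. The endothelial sum was mostly CDH5, at 268 against 25.7 and 13.9. VWF was at 40.1 against 29.5 and 23.5, and CLDN5 was lower, at 2.06 against 8.58 and 12.8. What set 2D replicate 3 apart was not tested.

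The ratios of mitochondrial enzymes to MTHFD1 had 2D replicate 3 near the 3D libraries, and the ratio of SHMT2 to SHMT1 did not separate the cultures. MTHFD2 to MTHFD1, per kilobase of the principal transcript, was 2.19, 2.09 and 0.634 in 2D and 0.519, 0.555 and 0.391 in 3D. By this length the mitochondrial gene led in 2D replicates 1 and 2 and the cytosolic gene in the other 4 libraries. Per kilobase of annotated exon MTHFD2 led in 3D too (560 ± 45.6 against 426 ± 64.0), so which gene leads depends on the length, while the order of the libraries does not. ALDH1L2 to MTHFD1 was 0.439, 0.565 and 0.0245 in 2D and 0.0379, 0.0291 and 0.0278 in 3D, with 2D replicate 3 the lowest of all. In that library MTHFD1, the divisor, had its highest value (5379), while ALDH1L2 (317) was inside its 3D range (237 to 367). The high MTHFD1 value lowers each ratio to MTHFD1 there. MTHFD1L to MTHFD1 moved less, from 0.900, 0.889 and 0.433 to 0.383, 0.594 and 0.344, and overlapped. SHMT2 to SHMT1 was 371, 36.4 and 150 in 2D and 91.1, 214 and 76.3 in 3D, with 2D replicate 2 the lowest of all and 2D replicate 3 between the other 2D libraries. Within mitochondria, 1 ratio did keep 2D replicate 3 with its own culture: MTHFD2 to SHMT2 was 0.628, 0.730 and 0.722 in 2D and 0.414, 0.418 and 0.319 in 3D.

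**Figure D3:**
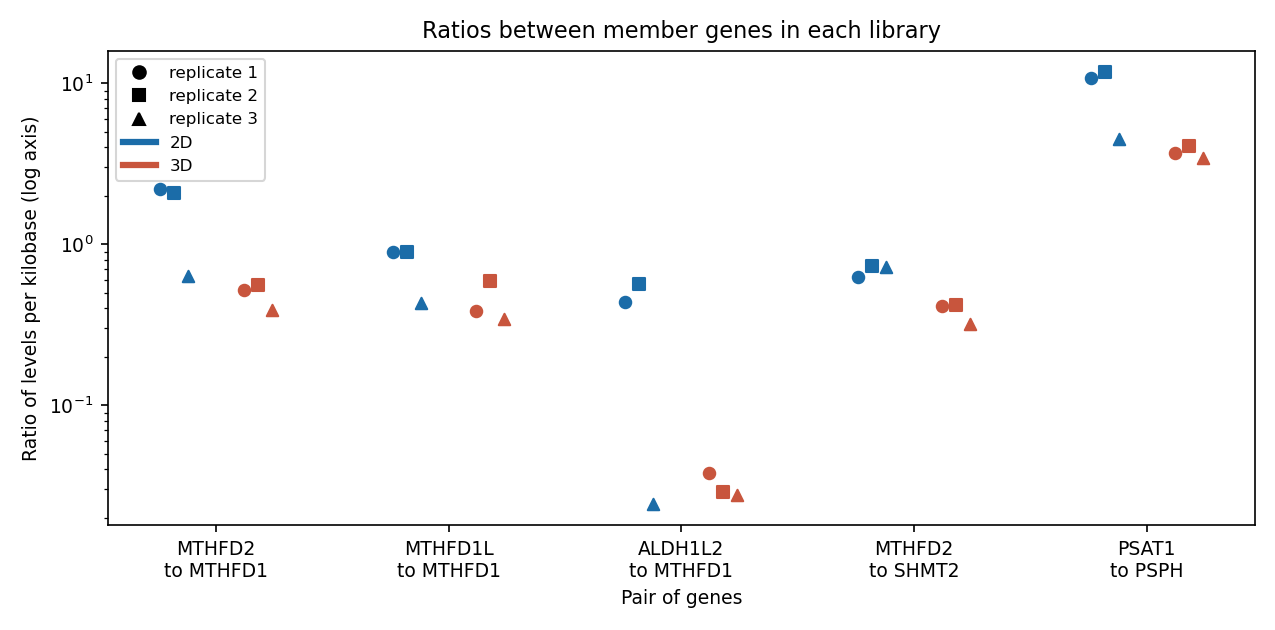
Ratios of levels per kilobase of the principal transcript (log axis) for 5 pairs of genes in each library, 2D in blue and 3D in red. MTHFD2 to SHMT2 separates the cultures with all 2D libraries together (0.628 to 0.730 against 0.319 to 0.418), whereas for ALDH1L2 to MTHFD1 2D replicate 3 sits below the 3D libraries.

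Levels per kilobase of annotated exon placed PSAT1 first in 2D (8473 ± 6134 normalised counts per kilobase), followed by MTHFD2, SHMT2, PHGDH, MTHFD1L, PSPH, MTHFD1, ALDH1L2 and SHMT1 (13.6 ± 16.9). In 2D, neighbours in this order overlapped between libraries except ALDH1L2 and SHMT1. In 3D the order was PSAT1 (1395 ± 472), SHMT2 (845 ± 94.1), MTHFD2 (560 ± 45.6), PHGDH (457 ± 42.7), MTHFD1 (426 ± 64.0), MTHFD1L (391 ± 59.6), PSPH (292 ± 73.1), ALDH1L2 (35.7 ± 7.70) and SHMT1 (5.397 ± 2.88). There PHGDH and MTHFD1, MTHFD1 and MTHFD1L, and MTHFD1L and PSPH overlapped, and the other neighbours did not. The top and the middle of the order depend on the length used. PHGDH, at rank 4 in both cultures by annotated exon, was at rank 2 in 2D by the principal transcript. By that length it led in 3D, with PSAT1 at rank 3, while PSAT1 stayed first in 2D. ALDH1L2 and SHMT1 came last in both cultures by each of the 3 lengths tried.

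Each gene was compared with 10464 protein-coding genes of a mean of at least 100 by the root-mean-square difference of log2 values, centred on their mean, over the 6 libraries. The gene second closest to PHGDH was ATF4, at 0.079, after RP9 (0.075) and before KCTD15 (0.098). ATF4 had 19934, 15472 and 4982 normalised counts in 2D and 4035, 4084 and 4152 in 3D, a log2 change of -1.50 (limma adjusted p = 0.042; up to 0.13 with a library dropped, and past the threshold in only 1 of those 6 fits, that without 2D replicate 3). Pseudogenes and other genes share 7.84% of its 75-base windows. The closest to PSAT1 were SLC1A4, a neutral amino acid transporter (0.18), WARS1, the cytosolic tryptophanyl-tRNA synthetase (0.26), and ULBP1 (0.26). ALDH1L2 was nearest to NFIL3 (0.34), CTH (0.36) and ULBP1 (0.36), and the 3 nearest of MTHFD2 were ZHX2, CPEB3 and OTUD1 (all 0.13).

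The profiles of PSPH were closest to DNAJB9 (0.10), HAX1 (0.11) and TXNL4B (0.11), those of SHMT2 to RFNG (0.065), ZNF48 (0.094) and TMEM198 (0.094), and those of MTHFD1L to TIMP3 (0.033) and ARL2BP (0.037). MTHFD1 lay nearest to CYP2U1 (0.050), MCCC1 (0.059) and CACTIN (0.068). SHMT1 had no close neighbour, with POLR3E at 0.52, MAMLD1 at 0.73 and EXPH5 at 0.74. None of the 9 was among the 3 nearest genes of another. Between themselves, PHGDH and MTHFD2 were the closest pair (0.22), and MTHFD1 and ALDH1L2 the farthest apart (1.93). These differences describe 6 libraries and carry no test.

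**Figure D4:**
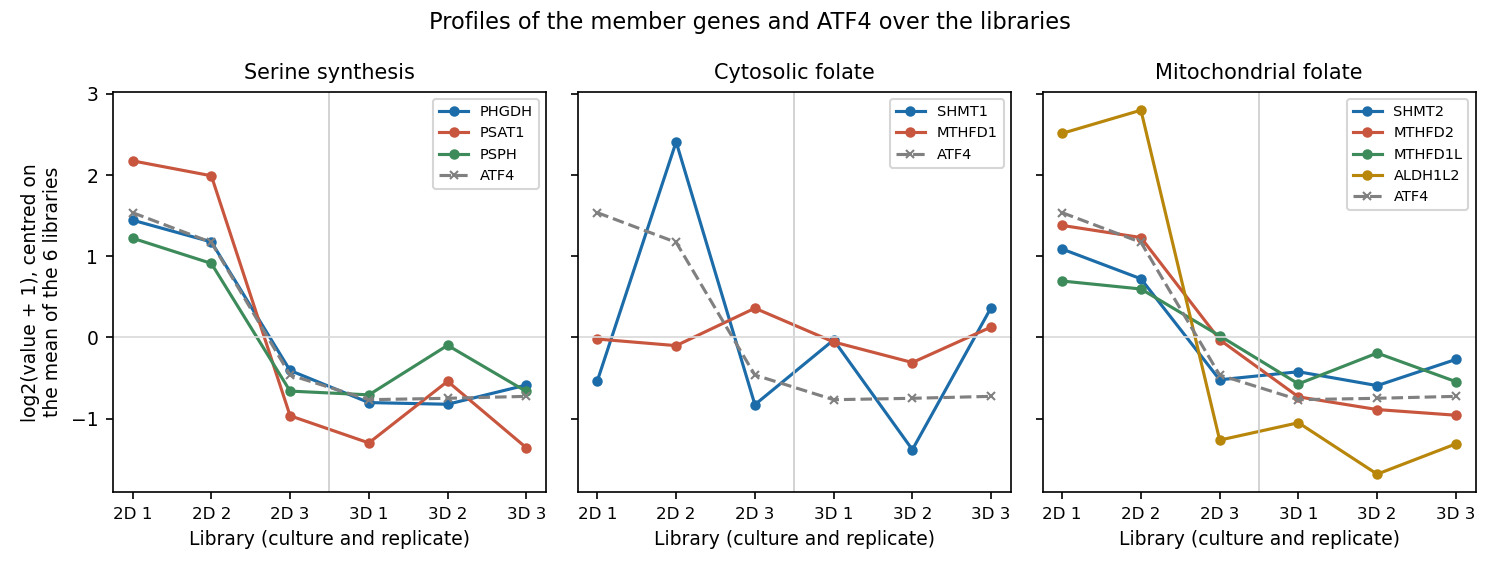
Log2 values of each gene centred on its mean over the 6 libraries, in 3 panels by role, with ATF4 as a dashed line in each. PHGDH follows ATF4 within a root-mean-square difference of 0.079, ALDH1L2 and PSAT1 swing more widely, and MTHFD1 alone peaks in 2D replicate 3.

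The rest of the pathway was described from 6 lists of 49 genes, of which 48 were in the table and 44 were tested. Of these, 3 were higher and 3 lower in 3D, where 24.1% of all genes were called in either direction, and the median log2 change was -0.17. With 2D replicate 3 dropped, 6 were higher and 14 lower (45.6% of all genes called). With 3D replicate 2 dropped 3 were higher and 1 lower (10.1% and 9.03% of all genes). None was lower when any other library was dropped (4.21% to 4.92% of all genes), and 1 to 2 were higher (3.42% to 6.57%). At an unadjusted p under 0.05, the fit on all libraries had 5 higher and 13 lower, against 20% and 20.3% of all genes.

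Among the other enzymes of folate interconversion, 2 of 7 tested were higher and 0 lower, where 12.5% and 11.6% of all genes were. At an unadjusted p under 0.05 the counts were 3 and 0, against 20% and 20.3% of all genes. FTCD, which feeds carbon from histidine breakdown into folate, rose from 5.78 ± 2.73 to 65.3 ± 23.7 (log2 3.30, limma adjusted p = 0.0038). MTHFD2L, the mitochondrial relative of MTHFD2, had 129 ± 30.2 in 2D and 188 ± 40.5 in 3D and did not pass (adjusted p = 0.18). Neither did TYMS, which uses folate carbon to make thymidylate (1220 ± 402 and 1040 ± 73.2, adjusted p = 0.59; 31.5% of its windows shared, chiefly with ENOSF1).

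Of the purine synthesis genes, which take up formyl-folate, 0 of 6 passed in either direction, also at an unadjusted p under 0.05 and by edgeR and DESeq2, with log2 changes of -0.26 (GART) to 0.14 (PFAS). Neither did any of 3 tested genes of glycine cleavage (also 0 unadjusted) or of 10 tested serine users. Of the serine users, 3 were lower at an unadjusted p under 0.05 (20.3% of all genes). There edgeR called 0 lower and DESeq2 1 (11% and 14.8% of all genes). Among 7 tested genes of the methionine cycle and transsulfuration, CTH, which releases cysteine from cystathionine, fell from 2354 ± 1687 to 242 ± 48.6 (log2 -2.79, limma adjusted p = 0.026). Of the 6 fits that dropped a library, only that without 2D replicate 3 kept the call (adjusted p up to 0.089).

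Of 11 serine and folate carriers, 1 was higher and 2 lower, where 12.5% and 11.6% of all genes were. At an unadjusted p under 0.05 the counts were 2 and 7, against 20% and 20.3% of all genes. DESeq2 called 5 lower (14.8% of all genes), and 6 were lower with 2D replicate 3 dropped (23% of all genes). SLC1A4, which carries serine across the cell membrane, fell from 2696 ± 1795 to 434 ± 138 (log2 -2.29, limma adjusted p = 0.032; up to 0.11 with a library left out). SLC25A32, the mitochondrial folate carrier, fell from 717 ± 46.5 to 401 ± 69.4 (adjusted p = 0.017; up to 0.079), but other genes hold 73.9% of its windows, so its value is uncertain. SFXN1, the main mitochondrial serine carrier, had 2548 ± 637 in 2D and 2633 ± 158 in 3D and did not pass (adjusted p = 0.81). Its relative SFXN3 rose from 1349 ± 859 to 3598 ± 472 (adjusted p = 0.019; up to 0.080).

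**Figure D5:**
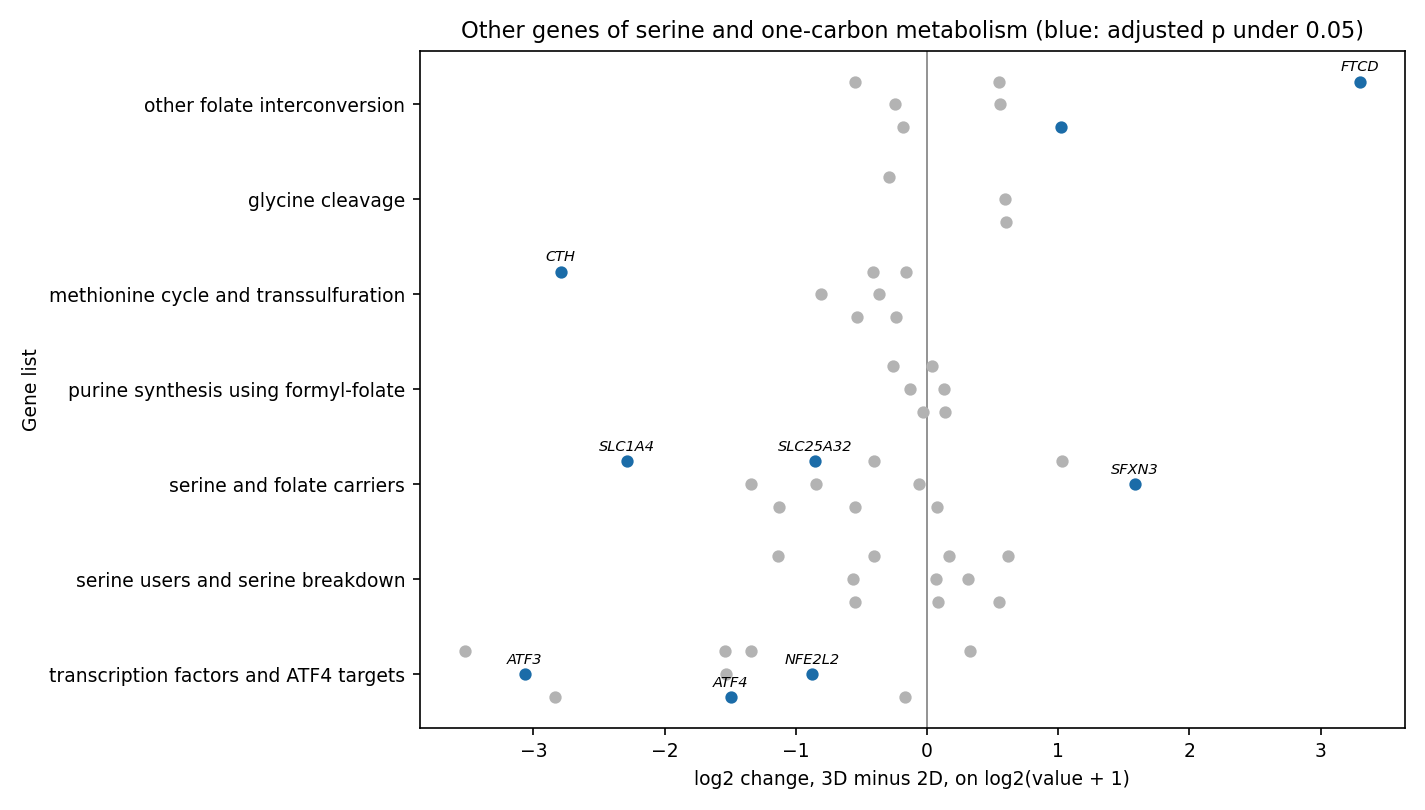
Log2 change from 2D to 3D of each tested gene in 6 lists of serine and one-carbon metabolism and 1 list of transcription factors and ATF4 targets, with genes past an adjusted p of 0.05 in blue and most of these named. The purine genes cluster at 0, between -0.26 and 0.14, while CTH and SLC1A4 lie far to the left and FTCD far to the right.

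Of 10 tested transcription factors and ATF4 targets, 3 were lower and 0 higher, where 11.6% and 12.5% of all genes were. All 3 were transcription factors. At an unadjusted p under 0.05 the counts were 6 and 0, against 20.3% and 20% of all genes. Besides ATF4 itself, ATF3, a stress-induced factor, fell by 3.06 on the log2 scale (limma adjusted p = 0.00011) and NFE2L2, the antioxidant regulator NRF2, fell from 4872 ± 1053 to 2611 ± 202 (adjusted p = 0.017; up to 0.079 with a library left out). ATF3 had 2636, 2167 and 2538 in the 2D libraries, so in 2D replicate 3 it stood with its own culture, unlike ATF4. MYC, with 12564 ± 1811 and 11315 ± 2607, did not pass (adjusted p = 0.62). ASNS, CHAC1, TRIB3, DDIT3 and CEBPB overlapped between the cultures and did not pass (log2 -3.52 to -1.34, limma adjusted p = 0.095 to 0.23). DDIT4 overlapped as well (log2 0.32, limma adjusted p = 0.66). Of the 10, edgeR called 5 lower and DESeq2 6 (11% and 14.8% of all genes). With 2D replicate 3 dropped, 8 of the 10 were lower (23% of all genes), and 1 to 2 were with any other library dropped (4.21% to 9.03%).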

How the data were processed

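The authors deposited 1 table of normalised read counts, a signal per gene made by dividing reads by 1 size factor per library. The tools named in the submitters' processing notes are HISAT2, DESeq2 and featureCounts 1.5.0, with the builds hg38 and GRCh38. The annotation is not given in the sources used here. Per the labels' protocols the kit was TruSeq RNA v2, which does not mark strand. All values were whole multiples of 1 step per library within 0.01 of a read. Separate cultures for the replicates are not stated in the labels, and the p-values rest on a spread between libraries that may be only technical.

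Genes with a mean of at least 10 (15598) were tested, two-sided and with culture as the only term, in R 4.3.3. The tool was limma 3.58.1 with trend, applied to log2 of the value plus 1. Such fold changes understate those of low genes. edgeR 4.0.16 and DESeq2 1.42.0 were run on the recovered reads as alternatives (edgeR called 3657 genes, DESeq2 4724), beside other pseudocounts, filters, scalings, the replicate block and leaving out libraries. The fit was tested on simulated counts. Symbols other than the gene ID were found for 21496 genes; coordinates and lengths come from GENCODE 29. Shared windows are 75-base stretches found in transcripts of another gene on either strand. The members and lists were chosen with earlier results of these data known. Named were the 9 genes, list members past the threshold (up to 4 per list), 9 fixed genes and the 3 genes most like each member; others were chosen after their values were seen. ALDH1L1 and SESN2 were not analysed here. Some genes that this rule names are not reported here.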

Additional observations from a re-analysis of the deposited data

How the results depend on the processing

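The 3 calls among the 9 genes rest on few libraries. Leaving out 1 library in turn gave 0 to 7 of the 9 lower in 3D, 1 to 6 genes of the 6 one-carbon lists higher and 0 to 14 lower, and 534 to 3526 of all genes higher and 656 to 3585 lower. Without 2D replicate 3 and 3D replicate 2 together, 7 of the 9 were lower, 9 list genes were higher and 19 lower, and 4436 of all genes were higher and 4605 lower. The replicate block gave 5 of the 9 lower (9.45% of all genes; PSAT1 at an adjusted p of 0.018 and ALDH1L2 at 0.025 were added), edgeR 5 and DESeq2 7, and DESeq2 8 list genes lower. Whether the replicate numbers pair samples is not stated in the labels. Deviations of same-numbered libraries correlated at -0.084, -0.139 and 0.045, and only the replicate 3 libraries correlated best with their own number. Direction turned for SHMT1 without 2D replicate 2 (0.33) and for MTHFD1 without 2D replicate 3 and 3D replicate 2 (0.097), neither past the threshold (over the fits without 1 library, -1.29 to 0.33 for SHMT1 and -0.26 to -0.018 for MTHFD1); the cause was not tested. Rescaling to equal totals gave 2416 genes higher and 1253 lower, against 1950 and 1816, as the median log2 change of all genes moved from -0.02 to 0.11; there 2 of the 9 were lower. Of 18 ranks per kilobase (9 in each culture), 5 changed with the longest transcript and 9 with the principal transcript, a length chosen after seeing the data. SHMT1 had the fewest reads, 17 in its lowest library, where the other 8 genes had at least 244. None of the 4 genes PSAT1, PSPH, SHMT2 and ALDH1L2 passed without 3D replicate 2 alone (-2.40, -1.18, -0.78 and -2.53).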
